A study of Mus musculus with 5 samples.

Results

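Small nucleolar RNAs (snoRNAs) and small Cajal body RNAs (scaRNAs) were followed in RNA sequencing data of haematopoietic stem cells (HSCs) sorted from mouse bone marrow. The members were the genes named Snord, Snora or Scarna selected on a deposited TPM value (the length-corrected abundance of a gene's transcripts, scaled to a fixed total per library) above 0 in at least 1 of 5 libraries. That choice used the measured values themselves, so detection and level are described below without a test. Of 150 genes so named, 73 were members and 77 were at 0 in all libraries, in a table of 55335 genes. Among the members 53 were Snord genes, 18 were Snora genes and 2 were Scarna genes.

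snoRNAs are short nuclear RNAs that guide the chemical modification of other RNAs, above all of ribosomal RNA in the nucleolus. Box C/D snoRNAs (Snord) direct ribose methylation and carry the C motif TGATGA near the 5′ end and the D motif CTGA near the 3′ end, whereas box H/ACA snoRNAs (Snora) direct the conversion of uridine to pseudouridine and end with an ACA motif. scaRNAs (Scarna) do the same for spliceosomal RNAs in Cajal bodies. Most snoRNAs of vertebrates are cut out of the introns of longer host transcripts, are protected by a set of bound proteins and have no poly(A) tail.

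The groups were 3 wild-type libraries and 2 RankCre-ki libraries of mice described as C57BL/6J and aged 3 weeks, the latter with the genotype RankCre-ki/wt;Csf1r fl/-, in which Cre is made from the Rank locus and 1 Csf1r allele is floxed while the other is null. The study's methods place the line with the null Csf1r allele on C3H/HeJ and its other lines on C57BL/6J. The part of that background in the genotype values below was not tested. According to the study, Rank-driven Cre recombines in embryo-derived macrophages but spares HSCs, whereas by the genotype label the Cre knock-in and the null Csf1r allele are carried by all cells of these mice, HSCs included. The labels do not say whether each library came from a separate animal, so the p-values below measure only the spread between these libraries. HSCs were sorted as KSL CD48- CD150+ cells and amplified from an oligo(dT) primer in pools whose library names end in 90, 90 and 80 for the wild-type and 80 and 86 for the RankCre-ki libraries. By their names the libraries form 2 series: wild-type 1 and RankCre-ki 2 make up series 1, and wild-type 2, wild-type 3 and RankCre-ki 1 make up series 2. The study's methods name 2 tagmentation kits, applied to sets of the same make-up as these series, but no label assigns a kit to a library.

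Several properties of the libraries moved with these groups. In the order wild-type 1, 2, 3, RankCre-ki 1, 2, the number of genes above 0 TPM was 20208, 14766, 16961, 19416 and 26267. RankCre-ki 2 carries a female label, yet Y-linked transcripts were present in both series 1 libraries, where Xist was at 0.0273 and 0.0229 TPM, and Xist lay between 5.16 and 22.5 TPM in series 2. Name series and sex-linked expression therefore cannot be told apart. All 8 HSC identity genes were above 0 in each library, with a summed level of 445, 507, 819, 1332 and 745 TPM. Among 13 lineage and gate genes Cd79a, Ly6g and Elane were at 0 throughout, while the summed level, mostly of the globin gene Hbb-bt, was 39.5, 124, 111, 286 and 685 TPM. For several of these genes, but not for all, both RankCre-ki libraries lay above the wild-type ones. Of all genes tested below, 18.8% had this order. Cd48, a gene of the negative gate, was at 0 in each wild-type library, against 4.92 and 5.62 TPM in RankCre-ki 1 and 2. In wild-type 1, 2 and 3 S100a8 was at 0.0677, 0 and 0 TPM, against 8.31 and 12.9 TPM in RankCre-ki 1 and 2. Klrb1c, with at most 0.0516 TPM in a wild-type library, reached 4.40 and 12.8 TPM in them, and Csf1r, with at most 2.39 TPM in a wild-type library, reached 17.5 and 6.46 TPM. The part of other cells in the genotype values below was not tested. In these bulk samples fewer cells of a type and less RNA per cell cannot be told apart.

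The sequences of the members on which the description turns are shown first, read as DNA letters from the GENCODE M21 transcripts of build GRCm38, with the C motif (in the first 25 nt), the D motif (in the last 25 nt) or the ACA motif (in the last 8 nt) in capitals. Snord104 (chr11:106500993-106501062, plus strand) had the highest mean level of all members. Snora57 (chr19:8888538-8888685, minus strand) was, like Snord104, above 0 in every library without lying in a longer gene of the same strand.
Snord104: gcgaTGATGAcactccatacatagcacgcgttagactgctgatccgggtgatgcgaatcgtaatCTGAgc
Snora57: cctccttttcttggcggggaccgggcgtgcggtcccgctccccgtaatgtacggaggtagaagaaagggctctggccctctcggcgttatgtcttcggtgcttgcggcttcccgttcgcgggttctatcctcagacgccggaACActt

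Snord72 (chr15:5118404-5118484, plus strand, in an intron of Rpl37), Snord89 (chr1:39548745-39548854, minus strand), Snord87 (chr1:9942463-9942549, minus strand, in Snhg6), Snora31 (chr14:75847905-75848034, plus strand, in Tpt1) and Snora41 (chr1:63179004-63179135, plus strand, in Eef1b2) were among the highest members located in introns.
Snord72: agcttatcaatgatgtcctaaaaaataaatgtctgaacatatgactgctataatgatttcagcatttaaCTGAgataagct
Snord89: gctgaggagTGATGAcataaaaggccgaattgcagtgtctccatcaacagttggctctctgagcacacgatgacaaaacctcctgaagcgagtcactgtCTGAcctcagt
Snord87: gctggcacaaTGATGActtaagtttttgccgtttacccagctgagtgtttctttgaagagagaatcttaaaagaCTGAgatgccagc
Snora31: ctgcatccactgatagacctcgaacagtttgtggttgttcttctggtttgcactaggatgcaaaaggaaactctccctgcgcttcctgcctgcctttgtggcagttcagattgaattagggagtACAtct
Snora41: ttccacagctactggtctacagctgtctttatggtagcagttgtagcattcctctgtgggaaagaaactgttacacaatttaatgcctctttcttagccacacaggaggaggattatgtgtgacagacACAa

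Snord49b (chr11:62603079-62603150), Snord49a (chr11:62603450-62603521) and Snord65 (chr11:62604515-62604586) lie one after the other on the plus strand in introns of 1 host, the non-coding gene 2410006H16Rik, and are shown because their levels could be compared within that host.
Snord49b: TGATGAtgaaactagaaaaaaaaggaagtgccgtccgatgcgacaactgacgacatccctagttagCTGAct
Snord49a: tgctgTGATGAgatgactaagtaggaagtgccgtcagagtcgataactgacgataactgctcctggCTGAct
Snord65: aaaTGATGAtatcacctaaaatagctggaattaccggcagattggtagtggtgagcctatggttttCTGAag

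Snord2 (chr16:23108953-23109021, plus strand, Eif4a2) and Snord42b (chr11:78183056-78183124, minus strand, Rpl23a) overlap an exon of an annotated transcript and were above 0 in the name series 1 libraries alone, and Snord116l1 (chr7:59894620-59894713, minus strand) stands for the copies of a repeated cluster.
Snord2: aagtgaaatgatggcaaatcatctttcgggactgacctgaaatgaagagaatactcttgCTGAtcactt
Snord42b: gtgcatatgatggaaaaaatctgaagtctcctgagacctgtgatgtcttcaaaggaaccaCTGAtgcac
Snord116l1: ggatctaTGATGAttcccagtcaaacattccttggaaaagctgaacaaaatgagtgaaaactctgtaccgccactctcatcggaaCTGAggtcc

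Within the windows named, the D motif was present in 37 of the 38 C/D members outside the Snord116l cluster (97.4%), the C motif in 25 (65.8%), and both in 24. The ACA motif was present in 17 of 18 H/ACA members (94.4%). The Snord and Snora genes at 0 in all libraries were alike in this respect, with the D motif in 97.7%, the C motif in 63.6% and the ACA motif in 95.8%. Over 1507 annotated snoRNA genes, most of them without a Snord or Snora name and with both classes pooled, the D motif was found in 57.5%, the C motif in 21.8% and the ACA motif in 46.8%, on the transcript strand. Because the classes are pooled there, these shares cannot be set against those of a single class. The median length was 76.5 nt for C/D members outside the cluster against 82.5 nt for C/D genes at 0, and 132.5 nt for H/ACA genes in both sets. The median GC content of H/ACA genes was 45.9% in members and 51.1% in genes at 0. A run of at least 5 adenines, on which an oligo(dT) primer can in principle anneal, occurred in 6 of 58 members outside the cluster and in 7 of 76 genes at 0 with a sequence. The longest such run among the members printed above is that of Snord49b.

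Named snoRNA genes were above 0 TPM somewhat less often than genes in general, and more often than snoRNA genes without such a name. A value above 0 in at least 1 library was found for 48.7% of the 150 named genes, for 55.9% of all genes and for 189 of 1409 other genes annotated as snoRNA or scaRNA (13.4%). By class the share was 53.5% of 99 Snord genes, 42.9% of 42 Snora genes and 22.2% of 9 Scarna genes. The lead of the C/D class narrowed without the 17 genes of the Snord116l cluster, when the share of Snord genes was 46.3% (38 of 82).

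Of the 17 Snord116l genes, which are repeated copies in an imprinted region on chromosome 7 between positions 59861731 and 59904848 inside the long non-coding gene Snhg14, 15 were members. All 15 had the same value, 0.00200 TPM, in wild-type 1 and 0 in the other libraries. The 17 copies hold only 4 distinct sequences, and 14 of the 15 members have the sequence printed for Snord116l1, so that their reads cannot be told apart. The host Snhg14 was at 445 TPM in wild-type 1 and at 75.6 to 153 TPM in the other 4 libraries. These 15 members are left out of the counts below where stated, a choice made after their values were seen.

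**Figure D1:**
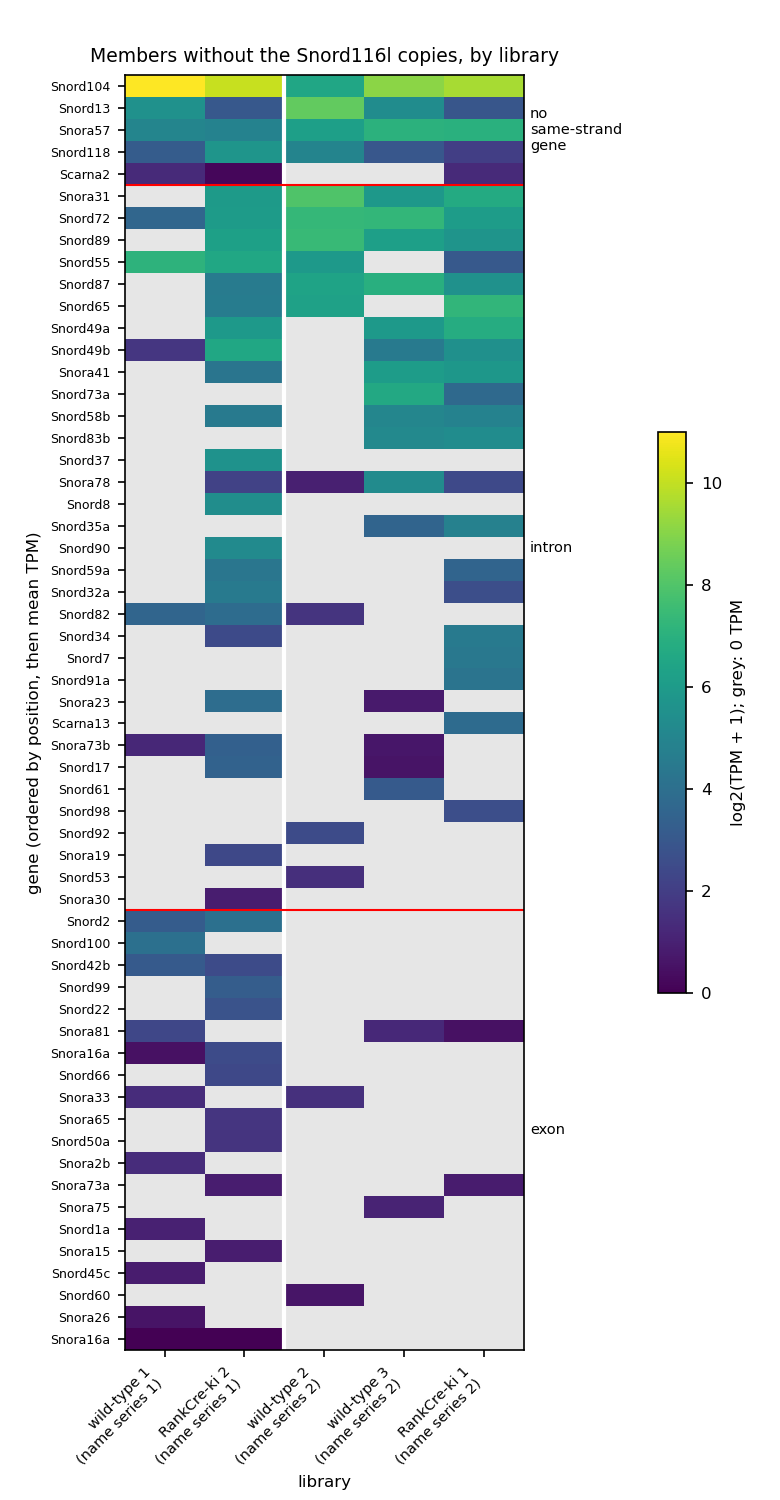
Level of the 58 members outside the Snord116l cluster in each library, as log2(TPM + 1) in colour, with 0 TPM in grey. Genes are rows, ordered by position relative to longer genes of the same strand and then by mean TPM, and the white line parts name series 1 (left) from series 2. Rows of members located in exons are filled mostly in the 2 series 1 libraries, whereas Snord104, Snord13, Snora57 and Snord118 are filled in all.

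Detection differed widely between libraries. In wild-type 1, 2 and 3 the numbers of members above 0 were 36, 16 and 22, and in RankCre-ki 1 and 2 they were 28 and 39. Without the Snord116l copies wild-type 1 held 21, which placed it among the wild-type libraries, and both RankCre-ki libraries then held more members than any wild-type library. The number of all genes above 0 followed nearly the same order, with RankCre-ki 2 highest and wild-type 2 lowest, although wild-type 1 exceeded RankCre-ki 1 there. C/D members numbered 27, 12, 14, 20 and 25 in the order wild-type 1, 2, 3, RankCre-ki 1, 2, and H/ACA members 8, 4, 8, 6 and 13. A scaRNA was above 0 in wild-type 1 (1), RankCre-ki 1 (2) and RankCre-ki 2 (1).

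Most members were seen in few libraries. Of the 73 members 40 were above 0 in a single library, 14 in 2, 8 in 3, 6 in 4 and 5 in all 5. Outside the Snord116l cluster 25 were confined to a single library: 11 to RankCre-ki 2, 5 to wild-type 1, 4 to RankCre-ki 1, 3 to wild-type 2 and 2 to wild-type 3. Members above 0 in both RankCre-ki libraries and at 0 in all wild-type libraries were Snord59a, Snord32a, Snord34 and Snora73a. No member had the reverse pattern. The share of all genes with exactly these patterns was not determined. Of all genes tested below, 18.8% had both RankCre-ki libraries above all wild-type libraries and 3.71% had both below, so the imbalance was not particular to the members.

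Name series 1 alone held 35 members (20 without the Snord116l copies), series 2 alone held 12 and 26 were found in both. The share of all genes confined to 1 series was not determined, so these counts cannot be set against genes in general. This split differed by position among the members. Of the 20 members that overlap an annotated exon, 15 were found in series 1 alone, 2 in series 2 alone and 3 in both. Of the 33 members in introns outside the cluster, 5 were found in series 1 alone, 10 in series 2 alone and 18 in both. Exon-located members numbered 11 in wild-type 1 and 11 in RankCre-ki 2 but 2 in each of the 3 series 2 libraries. Intronic members outside the cluster numbered 5, 10 and 16 in wild-type 1, 2 and 3 and 21 and 23 in the RankCre-ki libraries, so that wild-type 1 had the fewest intronic and, with RankCre-ki 2, the most exonic members. Among the other annotated snoRNA genes, 96 of which overlap an exon, 7 and 15 were above 0 in wild-type 1 and RankCre-ki 2, and 2, 3 and 5 in wild-type 2, wild-type 3 and RankCre-ki 1. Of 461 such genes in introns 34 and 46 were above 0 in wild-type 1 and RankCre-ki 2, and 15, 14 and 28 in the series 2 libraries in that order. Of 852 in no longer gene the numbers were 14 and 43, and 3, 7 and 9. In these genes, which were not used to choose the members, both series 1 libraries held more at every position, so the order was not particular to exons. The share of all genes above 0 was 36.5% and 47.5% in series 1 and 26.7%, 30.7% and 35.1% in series 2. The part of the number of genes detected in this split was not tested, and sex-linked expression moved with it.

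**Figure D2:**
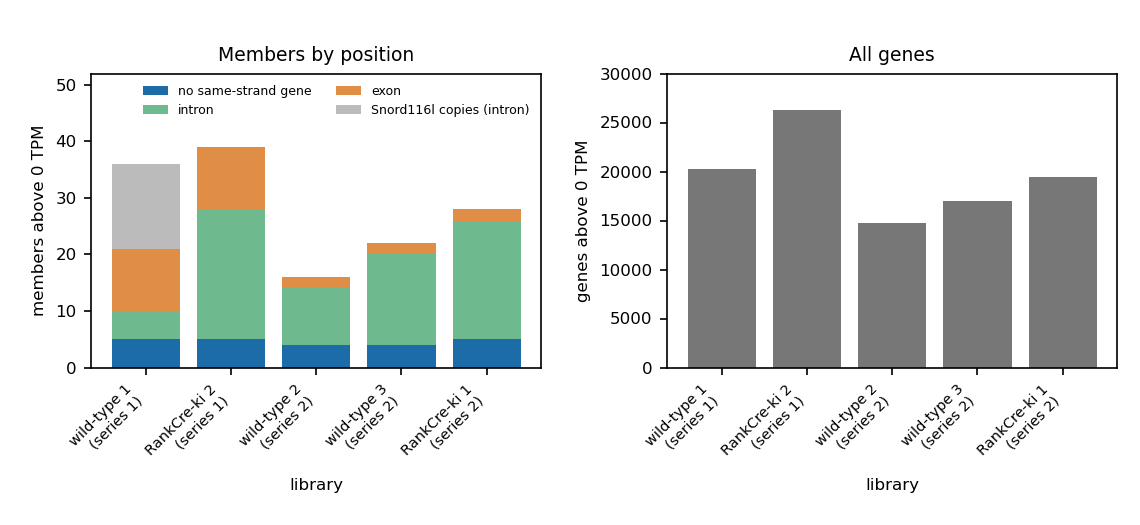
Number of members above 0 TPM in each library, stacked by position relative to longer genes of the same strand (left), beside the number of all genes above 0 TPM (right). Exon-located members number 11 in each series 1 library and 2 in each series 2 library, while the Snord116l copies occur in wild-type 1 alone.

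Members of the smallest and largest levels differed by many orders of magnitude, and a few genes made up the total. The summed level of the members was 2318, 1333 and 1499 TPM in wild-type 1, 2 and 3 and 1732 and 1968 TPM in RankCre-ki 1 and 2, which is 0.133% to 0.232% of all transcripts. The groups overlapped. Snord104 alone gave 87.5% of this sum in wild-type 1, 35.8% in wild-type 3, 43.3% in RankCre-ki 1 and 54.3% in RankCre-ki 2. In wild-type 2 Snord13 was the highest member, with 24.5% of the sum. Without Snord104 the sums were 290, 1243, 962, 982 and 899 TPM, which placed wild-type 1 lowest rather than highest. H/ACA members contributed 1.74%, 24.7%, 20.0%, 16.9% and 7.66% of the sum, the 2 series 1 libraries being lowest.

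Just inside the limit of detection, apart from the Snord116l copies, stood a second identifier of Snora16a with at most 1.73e-05 TPM. The next members reached 0.498 (Snora26), 0.558 (Snord60) and 0.801 TPM (Snord45c) in their highest library, and those just outside were at 0 in all 5. These 3 genes and other names from here on that belong to no stated rule, among them Snord65, Snord49a, Snord8, Snord90 and Snord37, were chosen after their values were seen.

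Among the C/D members, Snord104, a guide of ribosomal RNA methylation, was at 2028, 89.5 and 537 TPM in wild-type 1, 2 and 3 and at 749 and 1069 TPM in RankCre-ki 1 and 2. Wild-type libraries thus lay both above and below the RankCre-ki libraries. Both series 1 libraries were above all series 2 libraries. Snord13, known for its part in the acetylation of small-subunit ribosomal RNA, was at 45.7, 326 and 40.2 TPM in wild-type 1, 2 and 3, against 6.68 and 7.27 TPM in RankCre-ki 1 and 2. Here all wild-type libraries were higher, and wild-type 2 stood far above the other two. Snord118, also called U8 and required for processing of the large-subunit ribosomal RNAs, was at 8.33, 30.6 and 6.82 TPM in wild-type 1, 2 and 3 and at 3.17 and 51.6 TPM in RankCre-ki 1 and 2. Its RankCre-ki values enclosed all wild-type values.

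Snord72 was at 11.3, 158 and 155 TPM in wild-type 1, 2 and 3 and at 67.3 and 63.8 TPM in RankCre-ki 1 and 2. Wild-type 1 was lowest and the other two wild-type libraries were highest. Snord89 was at 0, 170 and 73.1 TPM in wild-type 1, 2 and 3, against 50.3 and 75.2 TPM in RankCre-ki 1 and 2. Snord87 was at 0, 82.4 and 121 TPM in wild-type 1, 2 and 3, against 46.9 and 22.6 TPM in RankCre-ki 1 and 2. In both genes wild-type 1 was the only library at 0. Snord55 showed another order, with 137, 59.3 and 0 TPM in the wild-type and 7.54 and 93.6 TPM in RankCre-ki 1 and 2, both series 1 libraries being highest.

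Among the H/ACA members, Snora31 was at 0, 253 and 56.5 TPM in wild-type 1, 2 and 3 and at 106 and 62.7 TPM in RankCre-ki 1 and 2. Snora57 was at 30.8, 74.0 and 133 TPM in wild-type 1, 2 and 3, against 124 and 28.8 TPM in RankCre-ki 1 and 2, so that the 2 series 1 libraries were the lowest of the 5. Snora41 was at 0, 0 and 67.3 TPM in wild-type 1, 2 and 3, against 56.3 and 18.4 TPM in RankCre-ki 1 and 2. The groups overlapped for all 3 genes. Snora78, in the host Snhg9, ranged from 0 in wild-type 1 to 38.2 TPM in wild-type 3. Snora23 was above 0 in wild-type 3 (0.742 TPM) and RankCre-ki 2 (14.4 TPM). Snora73a and Snora73b, which take part in the processing of ribosomal RNA and are 96.6% identical over 205 nt, may share reads. Snora73b reached 9.36 TPM in RankCre-ki 2, and Snora73a was at 0.767 and 0.857 TPM in RankCre-ki 1 and 2 and at 0 in the wild-type libraries.

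Of the 2 scaRNAs, Scarna13 was at 13.4 TPM in RankCre-ki 1 and at 0 elsewhere. Scarna2 was at 1.48 TPM in wild-type 1, 1.50 TPM in RankCre-ki 1 and 0.136 TPM in RankCre-ki 2, and at 0 in the other two wild-type libraries. Both genes were longer than most snoRNAs, with 275 and 414 nt.

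Position relative to longer genes went with level. Of the 73 members 20 overlapped an exon of a longer gene on the same strand, 48 lay in an intron and 5 (Snord104, Snord13, Snord118, Snora57 and Scarna2) lay in no such gene. All of these but Scarna2 were found in every library, as was Snord72. The median over members of the mean TPM was 0.431 in exons, 7.39 in introns outside the Snord116l cluster and 78.3 for those in no longer gene. No exon-located member had a mean of 5 TPM or more, against 21 of 33 intronic members. The highest exon-located mean was 4.84 TPM, that of Snord2. Of the 20 exon-located members 19 overlapped exons of non-coding transcripts only, among them 12 with an exon of a retained-intron transcript, and Snord45c overlapped an exon of a protein-coding transcript. Reads of such an exon and of the snoRNA within it cannot be told apart by position. Of 66 named genes in exons 30.3% were above 0 in some library, against 56.9% of 58 in introns outside the cluster and 55.6% of 9 in no longer gene.

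Among the snoRNA genes without such names the split of levels by position was smaller, and that of the shares above 0 was a different one. Of 96 in exons 22.9% were above 0 in some library, against 21.0% of 461 in introns and 8.22% of 852 in no longer gene. The median of their mean TPM, over those above 0, was 0.330, 0.537 and 1.92 TPM in the same order. The order of the levels was the one seen in the members, whereas the shares above 0 were not ordered alike.

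**Figure D3:**
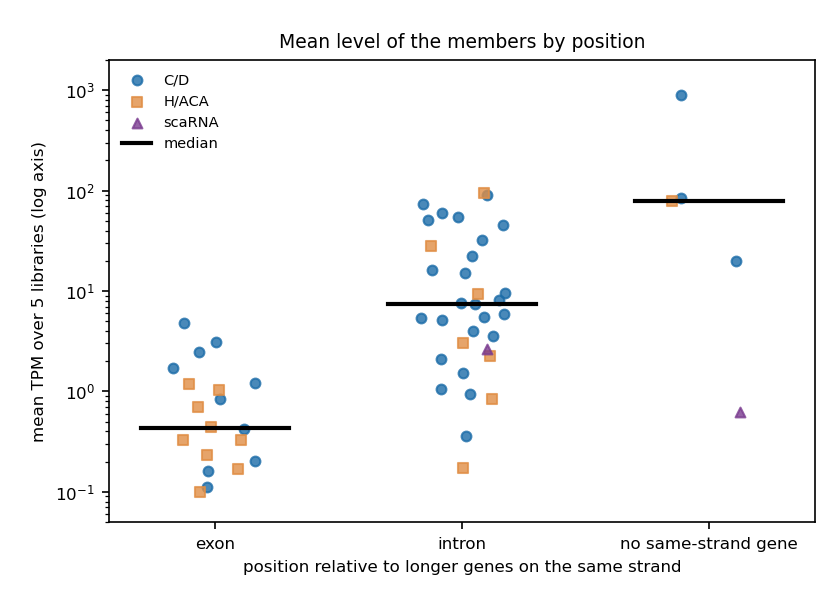
Mean TPM over the 5 libraries (log axis) of the members outside the Snord116l cluster, by position relative to longer genes of the same strand. Each point is a gene, shaped by class, and the black line is the median (0.431, 7.39 and 78.3 TPM), and the second Snora16a identifier, at 4.48e-06 TPM, lies below the axis.

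The 53 hosted members outside the cluster lay in 42 host genes, taken as the gene of the highest mean level where several enclosed a member. Among the hosts were Rpl37, Rpl13a and Eef1b2, which encode parts of the translation machinery, and the non-coding snoRNA hosts Snhg3, Snhg6 and Snhg12. The hosts were not counted by function. Intronic members had hosts with a median level of 224 TPM, and intronic named genes at 0 had hosts with a median of 54.7 TPM. Over all positions the order was the reverse, with a host median of 123 TPM for members and 228 TPM for named genes at 0. Over the 53 members Spearman's rho between mean member and mean host level was 0.437 (Pearson's r 0.381). Within introns rho was 0.456 (33 members) and within exons 0.378 (20 members). Members of 1 host and all members of 1 library share their source, so these coefficients are descriptions.

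In most cases a member stood far below its host. The median ratio of member to host TPM, over values above 0, was 0.0641 in introns and 0.0122 in exons. Of 103 such values 7 were above the host. Snord89 exceeded its same-strand host Gm15832 in the 4 libraries that held it, by 20.6 to 65.5 times, with the host at 0.864 to 3.65 TPM there. Snord8 in Chd8 (4.76 times), Snord90 in Rc3h2 (4.24 times) and Snora23 in Ipo7 (1.08 times) gave the other 3 values, all in RankCre-ki 2. For Snord72 the ratio to Rpl37 was 0.00728 in wild-type 1, 0.370 in wild-type 2, 0.311 in wild-type 3, 0.0981 in RankCre-ki 1 and 0.0312 in RankCre-ki 2. The host was highest in the 2 series 1 libraries, with 1554 and 2043 TPM, where the ratio was lowest.

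A shared host did not give shared detection. The 3 snoRNAs of 2410006H16Rik, printed above, were found together only in RankCre-ki 1 and RankCre-ki 2. Snord49a was at 0, 0 and 59.2 TPM in wild-type 1, 2 and 3 and at 110.0 and 58.6 TPM in RankCre-ki 1 and 2. Snord49b was at 2.33, 0 and 22.2 TPM and at 44.9 and 93.4 TPM, and Snord65 at 0, 78.3 and 0 TPM and at 150.4 and 23.9 TPM in the same order. Wild-type 2 thus held Snord65 without the other two, and wild-type 3 held both Snord49 genes without Snord65. The host was at 931, 133 and 129 TPM in wild-type 1, 2 and 3, against 429 and 1011 TPM in RankCre-ki 1 and 2, with wild-type 1 among the highest although its 3 snoRNAs summed to the 2.33 TPM of Snord49b. Snord49a and Snord49b share 51 of 72 positions (70.8%), and Snord49a and Snord65 share 58.3%.

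In Rpl13a, at 1741 to 6828 TPM, Snord32a and Snord34 were found in both RankCre-ki libraries alone and Snord35a in wild-type 3 (10.6 TPM) and RankCre-ki 1 (27.7 TPM), while Snord33, which overlaps an exon of that gene, was at 0 throughout. In Gas5, a non-coding snoRNA host, all 4 named genes overlapped exons and were at 0 in all libraries. Eif4a2, an RNA helicase of translation initiation, held Snord2 and Snora81, both in exons.

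The genotype test compared RankCre-ki with wild-type libraries with limma on log2(TPM + 1), on which scale fold changes of low genes are understated. Of the 73 members 28 reached 1 TPM in at least 2 libraries and entered it, 23 of them through both groups, 3 through the RankCre-ki libraries alone and 2 through the wild-type libraries alone. With an adjusted p up to 0.1 and a log2 fold change beyond 2 in either direction as the limits, 0 of 28 members and 0.0% of 13981 genes were called. The smallest adjusted p of a member was 0.521. At an unadjusted p under 0.05, 5 of 28 members were higher in RankCre-ki, beside 6.34% of all genes, and 1 was lower, beside 0.529% of all genes. Of the 5 higher members, 3 entered through the RankCre-ki libraries alone, which fixed their direction. The others were Snord49b and Snord49a. The median log2 difference was 0.95 over the 28 members and 0.52 over all genes tested.

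Snord59a, in an intron of the ATP synthase gene Atp5b, was at 0 in each wild-type library, against 10.6 and 19.1 TPM in RankCre-ki 1 and 2 (log2 difference 3.93 ± 0.99 SE). Snord32a was at 0 in each wild-type library, against 5.28 and 22.3 TPM in RankCre-ki 1 and 2 (3.60 ± 1.01 SE). Snord34 was likewise at 0 in each wild-type library, against 21.1 and 4.58 TPM in RankCre-ki 1 and 2 (3.47 ± 0.99 SE). None of these passed the threshold, and these 3 genes are those that entered the test through the RankCre-ki libraries alone, so that a difference, also within each series, was built into their entry. The limma fit with Benjamini-Hochberg correction gave an adjusted p of 0.521 for each of them and for Snord13, whose log2 difference was -3.43 ± 0.999 SE. For Snord49b it was 3.95 ± 1.43, with an adjusted p of 0.574 by limma. The remaining named genes with values below 0 were Snora33 (-0.97), Snora81 (-0.95), Snora57 (-0.16) and Snord72 (-0.017). Snora33 and Snora81 entered the test through the wild-type libraries alone, which favoured a value below 0. Snora57 changed sign when single libraries were left out.

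RankCre-ki 1 and 2 both exceeded each wild-type library for 4 of 28 members (Snord49b, Snord59a, Snord32a and Snord34), or 14.3%, beside 18.8% of all genes tested. Both lay below for Snord13 alone, or 3.57%, beside 3.71% of all genes. Both shares were near those of all genes. The order of Snord59a, Snord32a and Snord34 was built in by their entry through the RankCre-ki libraries alone. For Snord13 the RankCre-ki minus wild-type difference on the log2(TPM + 1) scale was -2.50 within series 1 and -3.92 within series 2.

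The name series test compared series 1 with series 2 with genotype as a term. Of the 28 members 2 were called, beside 4.71% of all genes, and both were higher in series 1. Snord2 was at 8.29 TPM in wild-type 1 and 15.9 TPM in RankCre-ki 2 and at 0 in the 3 series 2 libraries (log2 difference 3.59 ± 0.66 SE, adjusted p = 0.0816 by limma). Snord42b was at 7.64 TPM in wild-type 1 and 4.73 TPM in RankCre-ki 2 and at 0 in the 3 series 2 libraries (2.86 ± 0.47, adjusted p = 0.0816 by limma). Both overlap exons of retained-intron transcripts, of Eif4a2 and of the ribosomal protein gene Rpl23a. Both entered the test through series 1 alone, so that a difference was built into their entry and the 2 calls cannot test it. Neither call held when wild-type 2, wild-type 3 or RankCre-ki 1 was left out (adjusted p between 0.108 and 0.146 for Snord2 and Snord42b), and without wild-type 1 or RankCre-ki 2 neither gene entered the test. With no filter on level the adjusted p was 0.415 for both genes, and with quantile normalization it was 0.143 for Snord42b.

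At an unadjusted p under 0.05, 4 of 28 members were higher in series 1, beside 12.3% of all genes, and 3 were lower, beside 7.70% of all genes. Of the 4 higher members, Snord2, Snord42b and Snora73b entered the test through series 1 alone, which fixed their direction. The difference of Snora73b fell from 1.96 to 0.90 without RankCre-ki 1. The remaining higher member was Snord82, in an intron of the nucleolin gene Ncl. Snord82 was at 11.0 and 13.7 TPM in series 1 and at 2.13, 0 and 0 TPM in series 2 (3.24 ± 0.98, adjusted p = 0.154 by limma). The lower members were Snora57 (-1.84 ± 0.47, adjusted p = 0.112 by limma), Snord87 and Snora31. The differences of Snord87 and Snora31 were -4.24 and -4.27, with adjusted p of 0.176 and 0.217 by limma, and for both wild-type 1 was at 0 while RankCre-ki 2 was not. Snord72 (-2.13) did not reach an unadjusted p of 0.05. These 3 values rested on wild-type 1, without which they were -1.02 (Snord87), -0.75 (Snora31) and -0.08 (Snord72), and with RankCre-ki 1 or RankCre-ki 2 left out they were -6.66, -6.92 and -3.68.

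Both series 1 libraries lay above all series 2 libraries for 6 of 28 members (Snord82, Snord104, Snora73b, Snord42b, Snord2 and Snord55), or 21.4%, beside 17.1% of all genes tested. Both lay below for Snora57, Snord72 and Snord87, or 10.7%, beside 15.9% of all genes. Snora57 had the narrowest spread of these within series 1, at 29.8 ± 1.41 TPM (SD, n = 2), against 111 ± 32.0 TPM (SD, n = 3) in series 2. The order of Snora73b, Snord42b and Snord2 was built in by their entry through series 1 alone.

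**Figure D4:**
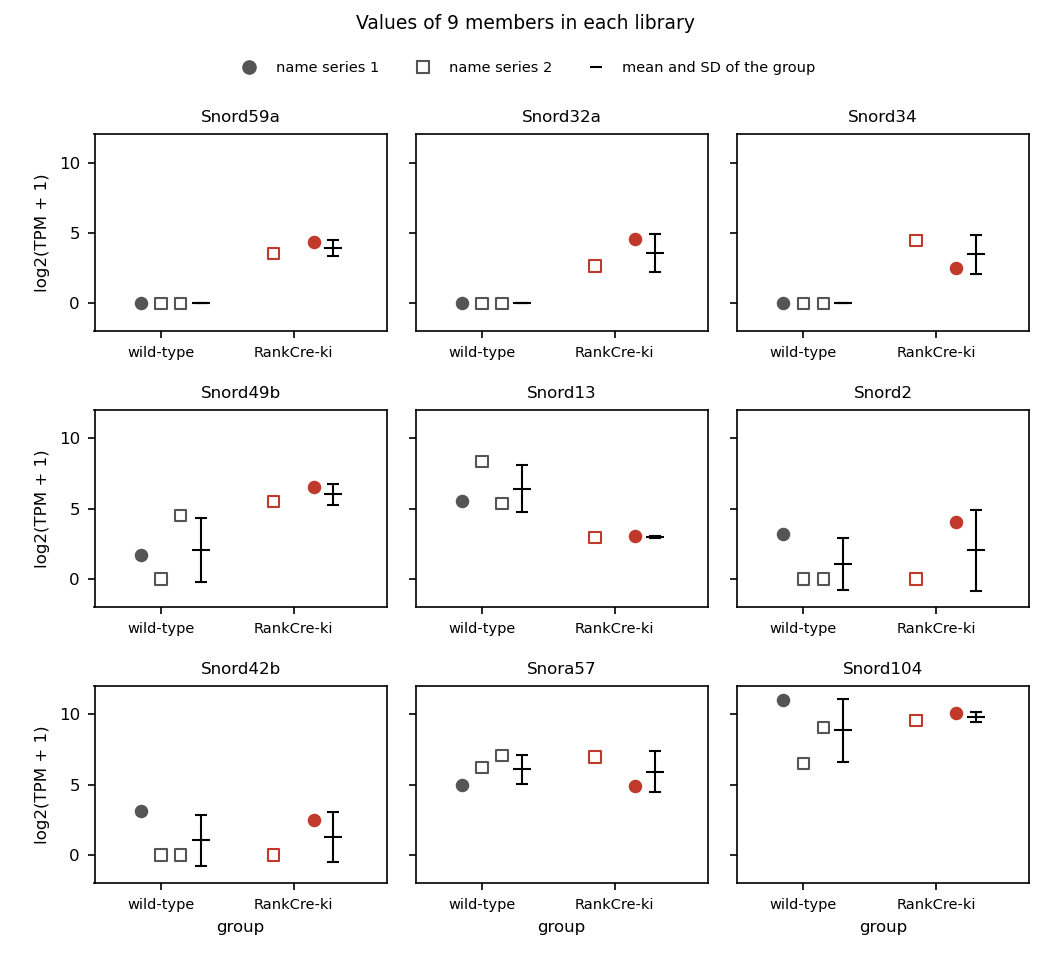
Level of 9 members in each library as log2(TPM + 1), by genotype, with filled circles for name series 1 and open squares for series 2, and the mean and SD of each group (n = 3 and n = 2) in black. Snord59a, Snord32a and Snord34 sit at 0 in all wild-type libraries, Snord13 is lower in both RankCre-ki libraries, and Snord2 and Snord42b are above 0 in the circles alone.

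The proteins that bind, assemble or trim these RNAs were read from the same tests. All 30 genes found from 4 lists entered, and 0 were called by limma in either test. In the genotype test 0 of 30 had an unadjusted p under 0.05, and the median log2 difference was 0.52, the same as over all genes. The box C/D core proteins are Fbl, the methyltransferase, with Nop56, Nop58 and Snu13, and their summed level was 806, 939 and 1341 TPM in wild-type 1, 2 and 3 and 1172 and 628 TPM in RankCre-ki 1 and 2. The box H/ACA core proteins are Dkc1, the pseudouridine synthase, with Gar1, Nhp2 and Nop10, and their summed level was 564, 568 and 619 TPM in the wild-type and 634 and 575 TPM in RankCre-ki 1 and 2. The single H/ACA proteins varied more than their sum, Dkc1 from 62.3 to 262 TPM and Gar1 from 9.79 to 43.6 TPM.

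In the name series test 6 of the 30 had an unadjusted p under 0.05 and all 6 were lower in series 1, beside 7.70% of all genes lower and 12.3% higher, namely the nucleases Exosc10, Parn and Xrn2, the helicase Ruvbl1, Dkc1 and Snu13. The median was -0.58 over the 30 genes and -0.24 over all genes. For Dkc1 the difference was -1.51 (adjusted p = 0.0963 by limma), which is under the limit on fold change. The 9 genes of processing and decay all had values below 0 with a median of -2.01. Their summed level was 44.6 TPM in wild-type 1, 251 and 283 TPM in wild-type 2 and 3, and 398 and 200 TPM in RankCre-ki 1 and 2, so that wild-type 1 stood apart and RankCre-ki 2 was closer to series 2.

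Other short RNAs that mostly lack a poly(A) tail showed no common order. Rn7sk, which controls elongation by RNA polymerase, was at 66.0 and 35.6 TPM in the series 1 libraries and at 1.08, 3.48 and 6.56 TPM in wild-type 2, wild-type 3 and RankCre-ki 1. The vault RNA Vaultrc5 was at 192 and 64.7 TPM in series 1 and at 43.5, 26.6 and 7.89 TPM in series 2, in the same order of libraries. As with Snord104, both series 1 libraries were highest for these 2 genes. Rny1 was at 153 TPM in wild-type 2 and at 0 in the other 4 libraries, and the telomerase RNA Terc, itself an H/ACA RNA, was at 0 in all.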

How the data were processed

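The sample titles gave each library its group and number. The authors deposited 1 table of TPM values, in which each library sums to the same total, and per the study's methods they aligned paired-end reads with gsnap to mouse build mm10 with Ensembl annotation. The submitters' processing notes name bcl2fastq 2.20.0 and featureCounts 2.0.1. The software that made the TPM, and whether it used strand, is not given in the sources used here. Values far below that of a single read occur, so fragments were shared between transcripts by estimation, and paralogs or overlapping genes can exchange signal. TPM carries no depth, so no counting interval was attached, and most C/D genes are shorter than a read. The 92 spike-in rows were at 0 and were removed.

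Class followed the gene name. Positions, sequences and host genes came from GENCODE M21 on GRCm38, which held 99.7% of the gene identifiers. A gene was called exonic if any base overlapped an exon of a longer gene on its strand, and intronic if it lay within such a gene otherwise. With a pseudocount of 1 TPM, every gene that reached 1 TPM in 2 libraries or more was tested with limma 3.58.1 in R 4.3.3 (lmFit, eBayes with a trend, two-sided, Benjamini-Hochberg over all tested genes), without a covariate for genotype and with genotype as a term for name series. The threshold was an adjusted p of at most 0.1 with an absolute log2 fold change above 2. An exact rank test of 3 against 2 libraries cannot reach significance, so sums and counts of detection were not tested. The fit was tested on simulated data. Tables were made with Python 3.11.15 and pandas 2.3.3.

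The members, the lists of proteins, short RNAs and markers and the tests were chosen with earlier results of these data known. Named members were those above 0 in all libraries, the highest of each class (6, 6 and up to 3), the 4 of smallest p in each direction of each test, and those found in all libraries of 1 group or name series and at 0 in the other. From the lists Nopchap1 was not matched by symbol, and Papd5 was matched as Tent4b. Some marker and host genes and 1 sequence are not reported here. Alternatives changed the pseudocount, filter, scaling, threshold, covariates, detection limit and libraries.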

Additional observations from a re-analysis of the deposited data

Results flagged for a closer look

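For 6 named members the RankCre-ki library lay on one side of the wild-type library in name series 1 and on the other side of both wild-type libraries in series 2. This difference between the series was not tested, and with 1 RankCre-ki library in each series it rests on single libraries. The share of all genes with such a change of side was not determined, so the count is no trait of the members. All differences below are RankCre-ki minus wild-type on the log2(TPM + 1) scale, with the mean of wild-type 2 and 3 in series 2.

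The C/D members Snord89, Snord87, Snord72 and Snord118, which lay higher in RankCre-ki in series 1, lay lower in series 2. For Snord89 the difference was 6.25 in series 1 and -1.13 in series 2, and for Snord87 it was 4.56 and -1.08, wild-type 1 being at 0 for both genes. Snord72 differed by 2.40 in series 1 and -1.20 in series 2. Snord118 differed by 2.49 in series 1 and -1.91 in series 2. The reverse was seen for Snord104, with -0.92 in series 1 and 1.77 in series 2, and for Scarna2, with -1.13 and 1.32, the latter against 2 wild-type libraries at 0.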

How the results depend on the processing

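In no alternative was a member called in the genotype test. Over all genes that count rose from 0 to 1 with the replicate block and ranged from 0 to 17 when single libraries were left out (17 without RankCre-ki 1, 8 without RankCre-ki 2). The number of members at an unadjusted p under 0.05 ranged from 1 to 9. Samples that share a replicate number did not deviate together (correlations -0.38 and -0.20), so the replicate block is no true pairing, and for the name series test it could not be fitted for want of residual degrees of freedom. The log2 difference of Snora57, between -1.20 and 0.87 with single libraries left out, turned from -0.16 to 0.32 without wild-type 3 and with the replicate block, to 0.87 without RankCre-ki 2, and to 0.14 with name series as a factor. Median-ratio scaling moved the median of all genes from 0.52 to 0.17, quantile normalization moved it to -0.09, and the members above 0 fell from 22 to 17 of 28 with either.

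In the name series test the number of members called fell from 2 to 0 with no filter on level or with any single library left out, and to 1 with a filter of 5 TPM. Over all genes the count of 658 became 0 with no filter, 343 with a filter of 5 TPM, 280 with quantile normalization and 1166 with no limit on fold change. It ranged from 0 to 59 when single libraries were left out, with 0 without wild-type 1, RankCre-ki 1 or RankCre-ki 2. Members at an unadjusted p under 0.05 numbered 13 with quantile normalization and 0 to 13 with single libraries left out. With quantile normalization Snord87 passed the threshold (-4.04).

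The limit of detection changed wild-type 1 most. Its members numbered 20, 17 and 10 at 0.1, 1 and 5 TPM, its C/D members 12, 11 and 9, and its H/ACA members 5 at 1 TPM and 1 at 5 TPM. At 5 TPM wild-type 2 held 10 members, and the H/ACA members were 2 in wild-type 2, 4 in wild-type 3, 3 in RankCre-ki 1 and 5 in RankCre-ki 2. A scaRNA reached 5 TPM in RankCre-ki 1 (1) and not in wild-type 1 (0) or RankCre-ki 2 (0, also at 1 TPM). Series 1 alone held 19, 18 and 12 members at 0.1, 1 and 5 TPM, and both series shared 16 at 5 TPM. A single library held 25, 23 and 17 members at these limits, while 7 were in 2 libraries and 5 in 3 at 5 TPM. Without the Snord116l copies, an alternative added after seeing the data, wild-type 1 held 21. Without Snord104 the summed TPM was 290.4 in wild-type 1, 962.3 in wild-type 3, 982.4 in RankCre-ki 1 and 899.2 in RankCre-ki 2. Rescaled to nuclear protein-coding genes the sums were 3179.5, 2004.8 and 2054.2 in wild-type 1, 2 and 3 and 2166.9 and 2478.9 in RankCre-ki 1 and 2. The cause of these changes was not tested. No depth is known for these libraries.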
